A study of Mus musculus with 6 samples.

Results

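The genes described here come from families known for immediate-early genes or for feedback inhibitors. Transcription of immediate-early genes starts within minutes of a stimulus, and the inhibitors shut the signal off. The genes were chosen by name, so some are neither, such as Ier3ip1 and some dual-specificity phosphatases and Kruppel-like factors. Below, immediate-early and feedback genes means this whole set. The rule took every probe with a single symbol in the platform annotation that belonged to the Dusp, Spry, Spred, Egr, Ier, Nr4a or numbered Klf families, and 13 further symbols (Fos, Fosb, Fosl2, Jun, Junb, Jund, Myc, Maff, Mafk, Zfp36, Etv4, Etv5 and Phlda1). It found 56 probes for 54 of the 8841 genes in the annotation, and each gene was represented by its brightest probe. Expression was measured on 6 arrays of total RNA from 2T3 cells, a mouse pre-osteoblast line, cultured in Opticells, which are closed cassettes with gas-permeable walls. The 3 static arrays came from cells left unmoved as controls. The 3 microgravity arrays came from cells on a Random Positioning Machine, which keeps reorienting the cells so that gravity has no constant direction; the labels call this simulated microgravity. All 6 samples are 1 immortalised line with no other treatment in the labels, and the sources used here do not give the exposure time.

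In the textbook scheme, growth factors, serum and mechanical load activate Ras, Raf, MEK and ERK, and parallel stress kinases activate JNK and p38. These MAP kinases phosphorylate factors such as the serum response factor partners and CREB, which switch on Fos, Egr and related genes before any new protein is made. The induced proteins are transcription factors that carry the response forward, and inhibitors that end it: phosphatases that remove the activating phosphates from the kinases, and Sprouty and Spred proteins that block signalling at Ras and Raf. In osteoblasts, fluid flow and stretch are known to induce Fos and Egr1, and parathyroid hormone the Nr4a genes. Many of these messengers decay quickly, so a level measured once reports the recent past of the culture.

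The comparison asked whether these genes differed between simulated microgravity and static culture. None of them passed the threshold of an adjusted p under 0.05. Of the 54 genes, 53 were tested, with 0 higher and 0 lower, against 0.28% of all 8586 genes tested, 0.0815% higher and 0.198% lower (limma, Benjamini-Hochberg adjustment over 10146 probes). The lowest adjusted p was 0.180, for Spry1. At an unadjusted limma p under 0.05 there were 7 genes (13.2%), against 11.5% of all genes. They were Spry1, Myc and Phlda1 with higher values, and Dusp22, Egr2, Klf2 and Klf3 with lower values. The share of all genes at that level was 5.79% higher and 5.7% lower, so the count among the immediate-early and feedback genes lay near the background. The groups did not overlap in 9 of the 53 genes, 5 higher and 4 lower, a share of 17.0% where that among all genes was 16.6% (8.51% higher and 8.07% lower).

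Values were split between the directions, 30 genes higher and 23 lower. The median log2 change was 0.10, against 0.05 over all genes, of which 56.5% were higher. None of the 53 (0) had a log2 change of 1 or more in size, against 2.19% of all genes, and the range ran from -0.68 (Klf3) to 0.97 (Mafk). In 33 genes (62.3%) the 95% interval lay within 2-fold either way, a share that was 69.9% over all genes. For the other 20 genes a 2-fold difference lay inside the interval, so the arrays cannot say that these genes stayed level.

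**Figure D1:**
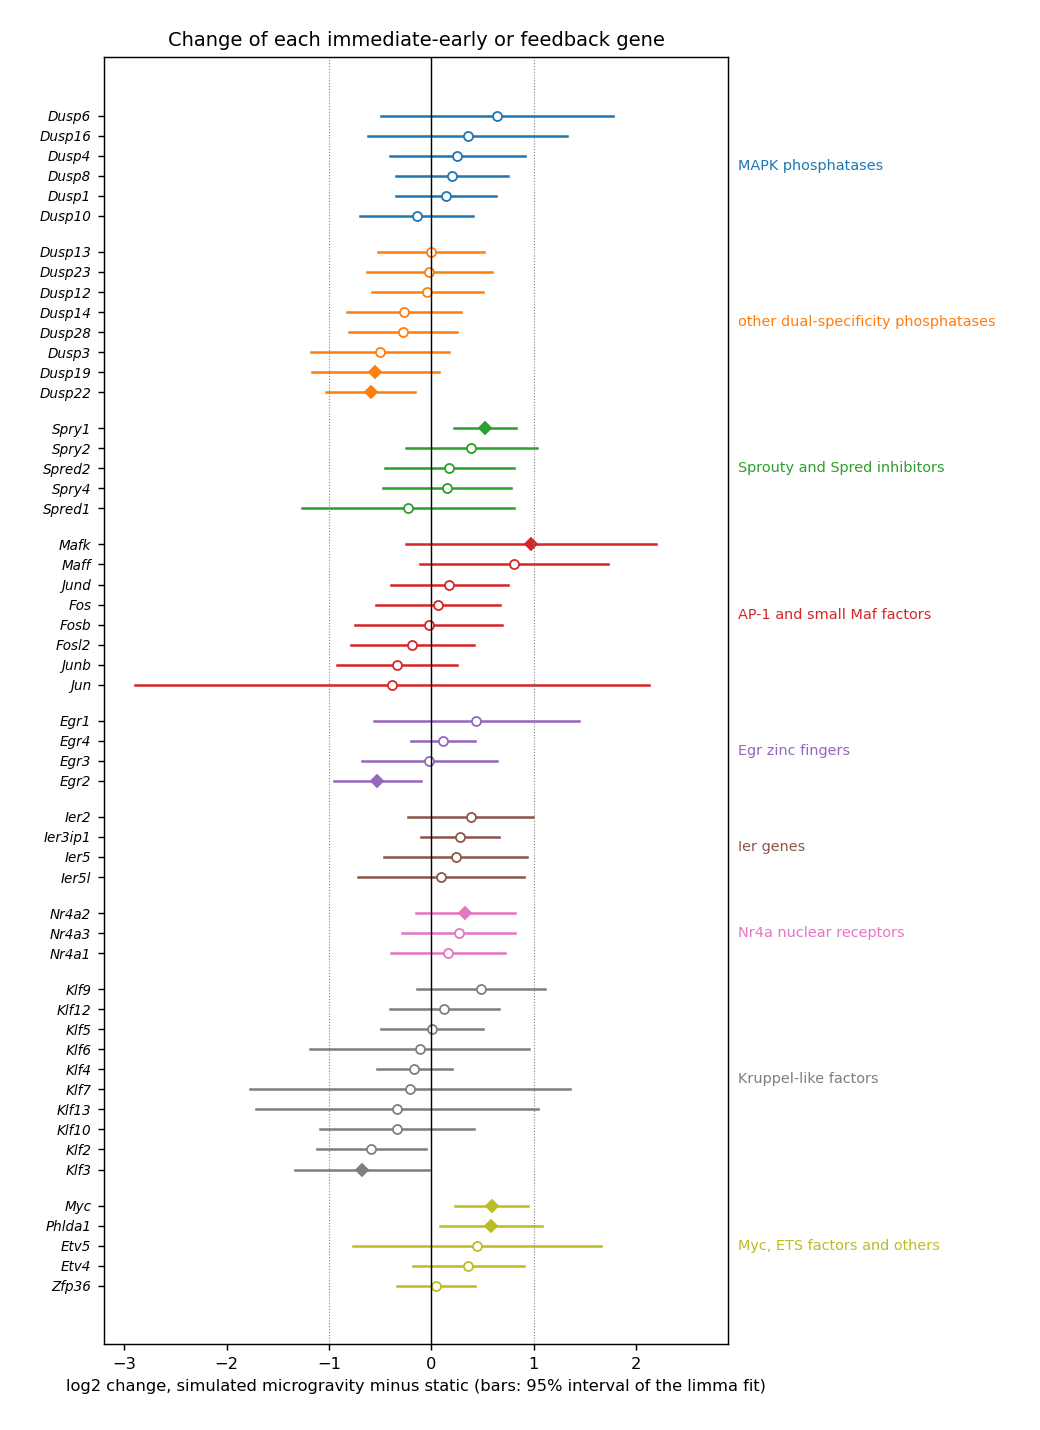
Log2 change of each of the 53 tested genes, simulated microgravity minus static, with the 95% interval of the limma fit, grouped by role; filled diamonds mark the 9 genes whose groups did not overlap, and dotted lines mark 2-fold. Most intervals cross 0, and the changes lie between -0.68 and 0.97.

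Intensities below are relative to the median probe of the array. A probe's brightness depends on its sequence, so levels are compared between arrays for the same gene and not between genes. On this scale 18 genes lay above the array median on every array and 19 below it. The labels do not say whether the samples of a group were separate cultures, so the p-values rest on a spread that may be only technical.

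The classical MAP kinase phosphatases are the enzymes that reverse MAP kinase activation. There were 6 of them, and 5 had higher and 1 had lower values, with 0 past the threshold and a median log2 change of 0.23. Dusp1, a nuclear phosphatase and a standard stress-induced early gene, had intensities of 2.50, 2.92 and 2.21 in static 1, 2 and 3 and of 2.28, 3.42 and 2.79 in microgravity 1, 2 and 3. The groups overlapped, and the log2 change was 0.14 (95% interval -0.35 to 0.64, limma adjusted p = 0.907). Dusp6, a cytoplasmic phosphatase specific for ERK whose messenger follows ERK activity, had 2.39, 0.915 and 2.35 in static cells and 4.41, 1.83 and 2.41 in simulated microgravity. Its highest array was microgravity 1 and its lowest static 2, and the other 4 lay between 1.83 and 2.41. The log2 change of 0.64 had a wide interval, -0.49 to 1.77 (limma adjusted p = 0.825). Dusp4, the nuclear relative of Dusp1, had a log2 change of 0.25 (95% interval -0.40 to 0.91). Dusp8, Dusp10 and Dusp16, which prefer JNK and p38, had log2 changes of 0.20, -0.14 and 0.36. A second, dimmer Dusp8 probe had a log2 change of -0.03 (SE 0.43), of opposite sign. Dusp2, Dusp5, Dusp7 and Dusp9 were not analysed here.

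The other 8 dual-specificity phosphatases have more varied substrates, some of them not MAP kinases. All 8 had lower values, with a median log2 change of -0.27, and 0 passed the threshold. Up to 3 of the 8 were higher when 1 array was left out, without static 2 or without microgravity 1. Values under a floor of 0.1 of the array median were set to it. With the floor at 0.05, with no floor or with array weights, 1 of the 8 was higher. Without static 2 and microgravity 2, 2 were. Dusp22, a phosphatase known to act in JNK signalling, had 1.26, 1.30 and 1.22 in static cells and 0.828, 0.770 and 0.907 in simulated microgravity. All 3 static values were higher than every microgravity value, with little spread in either group. It was 1.51-fold lower, with means of 1.26 ± 0.0379 and 0.835 ± 0.0686 (SD, n = 3; log2 change -0.59, SE 0.18, limma adjusted p = 0.292).

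Dusp19, reported to act on JNK signalling, had 0.769, 0.456 and 0.581 in static cells and 0.421, 0.364 and 0.426 in simulated microgravity. The groups did not overlap, but static 2 lay close to the microgravity values (log2 change -0.55, 95% interval -1.17 to 0.07). Dusp3, a small phosphatase of ERK and JNK, had 0.485, 0.687 and 0.394 in static cells and 0.341, 0.435 and 0.312 in simulated microgravity. Its groups overlapped (log2 change -0.50, 95% interval -1.18 to 0.17). Dusp28 had 0.40, 0.443 and 0.324 in static cells and 0.363, 0.291 and 0.307 in simulated microgravity. Only 1 microgravity value reached into the static range (log2 change -0.28, 95% interval -0.80 to 0.25). Dusp14 had a log2 change of -0.27, and Dusp12, Dusp13 and Dusp23 had changes of -0.04, -0.00032 and -0.02. Dusp13 was dim, with values at the floor on 2 arrays.

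Sprouty proteins are induced by growth factor signalling and restrain it at several points between the receptor and Raf. Of 5 Sprouty and Spred genes, 4 had higher and 1 had lower values, with 0 past the threshold. Spry1 had the smallest p of all 53 genes. Its intensities were 12.0, 12.4 and 13.2 in static cells and 16.7, 18.2 and 19.4 in simulated microgravity. Every microgravity array was above every static array, and the gap between the groups was wider than the range within either. The ratio was 1.44, from 12.5 ± 0.619 to 18.1 ± 1.37 (SD, n = 3; log2 change 0.53, SE 0.13, limma adjusted p = 0.180).

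Spry2 had 1.79, 1.36 and 2.72 in static cells and 2.38, 2.67 and 2.36 in simulated microgravity. The 3 microgravity values fell inside the upper part of a broad static range (log2 change 0.39, 95% interval -0.25 to 1.03, limma adjusted p = 0.780). Spry4 had a log2 change of 0.15 (95% interval -0.47 to 0.77). Spred1 and Spred2, relatives of Sprouty that hold Ras in check with the help of neurofibromin, had changes of -0.23 and 0.17.

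**Figure D2:**
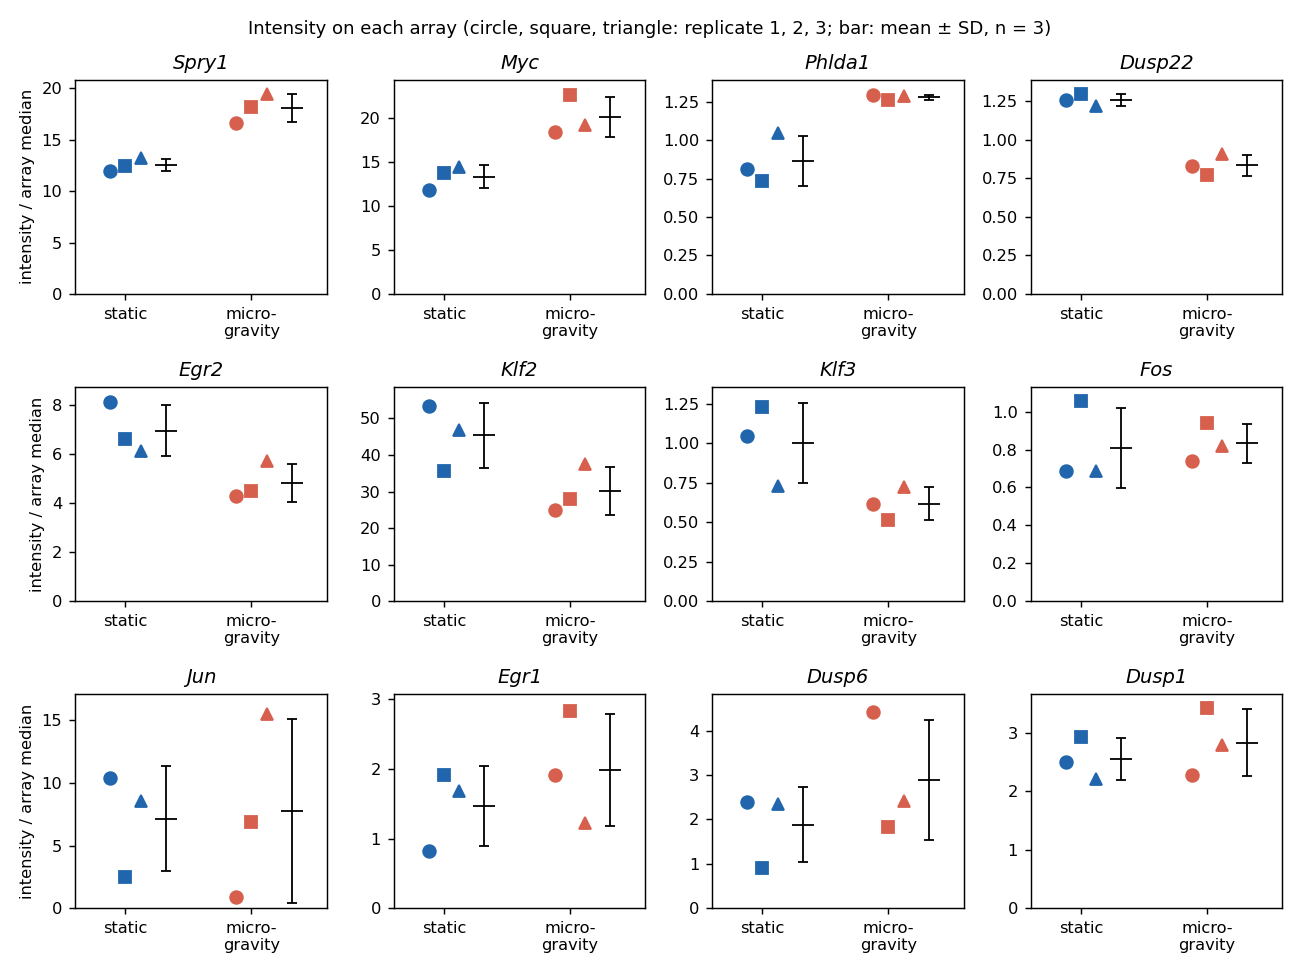
Intensity relative to the array median on each array for the 7 genes at an unadjusted p under 0.05 and for 5 standard early or feedback genes (Fos, Jun, Egr1, Dusp6, Dusp1); blue is static, red simulated microgravity, symbols are replicates 1 to 3 and bars are mean ± SD. Groups are separate in Spry1, Myc, Phlda1, Dusp22, Egr2 and Klf3, and overlap in Klf2 and the standard genes.

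AP-1 is a dimer of a Fos and a Jun family protein and binds the TGACTCA site of many growth and matrix genes. Of 8 AP-1 and small Maf genes, 4 had higher and 4 had lower values, with 0 past the threshold and a median log2 change of 0.02. Fos, the prototype immediate-early gene, had 0.687, 1.05 and 0.685 in static cells and 0.738, 0.938 and 0.820 in simulated microgravity. All 3 microgravity values lay within the static range, and the log2 change was 0.06 (95% interval -0.54 to 0.67, limma adjusted p = 0.979). Fosb had 7.12, 4.16 and 4.16 in static cells and 3.88, 4.38 and 6.90 in simulated microgravity. In each group 1 array, static 1 and microgravity 3, stood above the others, and the means were alike at 5.15 ± 1.71 and 5.05 ± 1.62 (SD, n = 3). Fosl2 had a log2 change of -0.19.

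Jun had the widest spread of all 53 genes. It had 10.4, 2.47 and 8.54 in static cells and 0.931, 6.87 and 15.5 in simulated microgravity. The highest and the lowest value, 16.6-fold apart, both came from the microgravity group. The log2 change of -0.38 had an SE of 1.06 and a 95% interval of -2.90 to 2.13, while the linear means pointed the other way (7.14 and 7.76). Without microgravity 1 the log2 change was 0.77 and without static 1 it was 0.0095, so no direction can be given for Jun. Junb, which can oppose Jun in AP-1, had 1.84, 2.40 and 1.46 in static cells and 1.62, 1.20 and 1.65 in simulated microgravity. The groups overlapped (log2 change -0.34, 95% interval -0.93 to 0.25). Jund, the more constantly made member, had a log2 change of 0.18.

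Maff and Mafk are small Maf proteins, which bind DNA but lack an activation domain. Maff had 0.172, 0.361 and 0.126 in static cells and 0.332, 0.363 and 0.346 in simulated microgravity. Its microgravity values were close together, but static 2 was as high as they were (log2 change 0.81, 95% interval -0.11 to 1.72, limma adjusted p = 0.552). Without static 2 the log2 change was 1.24 (limma adjusted p = 0.213). Mafk had 0.461 and 0.916 in static 1 and 3 and 1.62 and 1.01 in microgravity 1 and 3, with no value on static 2 or microgravity 2. The ratio of 1.96, the largest of the 53 genes, thus rests on 4 arrays (log2 change 0.97, 95% interval -0.25 to 2.19).

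Egr genes encode zinc finger factors. Of 4, 2 had higher and 2 had lower values. Egr1 had 0.826, 1.91 and 1.68 in static cells and 1.91, 2.83 and 1.23 in simulated microgravity. The groups overlapped over most of their ranges (log2 change 0.44, 95% interval -0.57 to 1.44, limma adjusted p = 0.857). Egr2, a factor best known from myelinating Schwann cells, had 8.11, 6.60 and 6.14 in static cells and 4.28, 4.48 and 5.72 in simulated microgravity. The groups did not overlap, although microgravity 3 came near static 3. Egr2 was 1.44-fold lower, from 6.95 ± 1.03 to 4.83 ± 0.782 (SD, n = 3; log2 change -0.53, SE 0.18, limma adjusted p = 0.339). Egr3 and Egr4 were dim, with values at the floor of 0.1 of the array median on 3 and 5 arrays, so their changes of -0.02 and 0.11 say little.

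The promoters are shown where they hold a site through which early genes are known to respond. The CArG box is bound by the serum response factor, and the cAMP response element, TGACGTCA, by CREB and its relatives. RefSeq promoter windows (GRCm38.p6, 250 bases before to 50 after a start site) were at hand for 42 of the 54 genes and were searched on both strands. The 42 genes had 52 windows, because some have several start sites. A CArG box was found in 5 of the 52 windows, for Egr2 and Zfp36 (1.63% of all 32851 windows hold one). Windows of neighbouring Egr2 start sites share a box. TGACGTCA was found in 3 of the 52, for Dusp1, Dusp8 and Maff (1.79% of all windows). The AP-1 site TGACTCA was found in 1 of the 52, for Dusp13 (5.20% of all windows). The sites found did not overlap each other. Several early genes, Egr1 and Myc among them, had no entry, and others carry such sites farther upstream than these windows reach. The stretches below are 5′ to 3′ on the gene's strand, with the site in capitals.
Egr2, CArG box, chr10:67537484-67537513, plus strand: cggatcttctCCTTTTTTGGaaagtctcgg
Egr2, CArG box of other start sites, chr10:67537787-67537816, plus strand: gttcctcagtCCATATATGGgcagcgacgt
Zfp36, CArG box, chr7:28379252-28379311, minus strand: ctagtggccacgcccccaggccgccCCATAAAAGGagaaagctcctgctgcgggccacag
Dusp1, cAMP response element, chr17:26508583-26508640, minus strand: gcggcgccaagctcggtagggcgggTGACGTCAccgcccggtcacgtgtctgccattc
Dusp8, cAMP response element, chr7:142095359-142095416, minus strand: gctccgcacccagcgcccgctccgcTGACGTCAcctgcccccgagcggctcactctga
Dusp8, a further cAMP response element, chr7:142095315-142095372, minus strand: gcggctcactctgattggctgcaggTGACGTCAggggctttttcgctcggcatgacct
Maff, cAMP response element, chr15:79347481-79347508, plus strand: gctggggcggTGACGTCActgcatgact
These 5 genes had different changes, none past the threshold. The genes with a CArG box had log2 changes of -0.53 (Egr2) and 0.05 (Zfp36). Those with a cAMP response element had 0.14 (Dusp1), 0.20 (Dusp8) and 0.81 (Maff).

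Zfp36 encodes tristetraprolin, which binds AU-rich elements and speeds the decay of cytokine and early gene messengers. It had 2.18, 2.04 and 2.55 in static cells and 2.33, 2.31 and 2.32 in simulated microgravity. The means differed by less than the static spread (log2 change 0.05, 95% interval -0.33 to 0.42, limma adjusted p = 0.977).

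Myc, the growth-promoting factor that follows Fos in the early response, had 11.9, 13.7 and 14.5 in static cells and 18.4, 22.7 and 19.2 in simulated microgravity. Every microgravity array was above every static array. The ratio was 1.50, from 13.4 ± 1.33 to 20.1 ± 2.27 (SD, n = 3; log2 change 0.59, SE 0.15, limma adjusted p = 0.191). Phlda1, a pleckstrin homology-like protein induced by ERK signalling, had 0.813, 0.733 and 1.05 in static cells and 1.29, 1.26 and 1.29 in simulated microgravity. The groups did not overlap, and the microgravity arrays were close together. Its ratio was also 1.50 (log2 change 0.58, SE 0.21, limma adjusted p = 0.376).

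Etv4 and Etv5 are ETS factors that are made when ERK is active. Etv4 was dim and had 0.148, 0.139 and 0.182 in static cells and 0.259, 0.193 and 0.158 in simulated microgravity. The lowest microgravity value lay inside the static range (log2 change 0.36, 95% interval -0.18 to 0.90). Etv5 had 0.187, 0.444 and 0.295 in static cells and 0.583, 0.544 and 0.197 in simulated microgravity. Its 2 highest values and its second lowest were all in the microgravity group (log2 change 0.45, 95% interval -0.76 to 1.66).

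The Nr4a receptors are orphan nuclear receptors that are induced within minutes of many stimuli. All 3 had higher values, a direction kept under quantile and cyclic loess normalization, and 0 passed the threshold. Nr4a2 had 0.785, 0.660 and 0.664 in static cells and 0.905, 0.951 and 0.800 in simulated microgravity. The groups did not overlap, but static 1 and microgravity 3 were nearly equal (log2 change 0.33, 95% interval -0.15 to 0.82). Nr4a1 had 0.791, 0.946 and 1.04 in static cells and 0.918, 1.29 and 0.923 in simulated microgravity. Here 2 of the 3 microgravity values lay inside the static range (log2 change 0.16, 95% interval -0.39 to 0.72). Nr4a3 had a log2 change of 0.27.

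All 4 Ier genes also had higher values, under both other normalizations too, with 0 past the threshold; 1 was lower without static 1, without microgravity 2, without static 2 and microgravity 2, and with array weights. Ier2 and Ier5 are early genes, and Ier5l is a relative of Ier5. Ier2 had 3.30, 3.34 and 4.94 in static cells and 5.56 and 4.40 in microgravity 1 and 2, with no value on microgravity 3 (log2 change 0.38, 95% interval -0.23 to 1.00). Ier5 and Ier5l had log2 changes of 0.24 and 0.10. Ier3ip1 met the naming rule, but it encodes a small protein of the endoplasmic reticulum and is not itself known as an early gene. It had 16.3, 20.7 and 17.0 in static cells and 19.9, 24.7 and 20.8 in simulated microgravity. Its groups overlapped through static 2 (log2 change 0.28, 95% interval -0.10 to 0.66). Ier3 was not analysed here.

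Kruppel-like factors are zinc finger proteins that bind GC-rich promoters. Klf2, Klf4, Klf6 and Klf10 are inducible early genes, while others report hormones or tissue state. Of 11 genes, 10 were tested, 3 with higher and 7 with lower values, and 0 passed. Klf15 was at or below the floor on all 6 arrays and was not tested. Klf2, known in endothelium for its induction by fluid shear, had 53.4, 35.8 and 46.9 in static cells and 25.1, 28.1 and 37.5 in simulated microgravity. Microgravity 3 was above static 2, and the other microgravity values were below every static one. Klf2 was 1.50-fold lower, from 45.4 ± 8.93 to 30.2 ± 6.50 (SD, n = 3; log2 change -0.59, SE 0.22, limma adjusted p = 0.403).

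Klf3, a repressor that recruits CtBP, had 1.05, 1.23 and 0.729 in static cells and 0.613, 0.515 and 0.724 in simulated microgravity. The groups did not overlap, with static 3 and microgravity 3 almost equal (log2 change -0.68, SE 0.28, limma adjusted p = 0.440). Klf4, the pluripotency and epithelial factor, had 39.7, 41.9 and 50.2 in static cells and 37.4, 41.4 and 38.2 in simulated microgravity. It was among the steadiest genes here (log2 change -0.17, 95% interval -0.53 to 0.20). Klf9, a glucocorticoid-responsive factor, had 10.6, 7.08 and 12.6 in static cells and 14.6, 10.8 and 16.5 in simulated microgravity. The groups overlapped (log2 change 0.48, 95% interval -0.14 to 1.11), and its dimmer probe had a log2 change of 0.15 (SE 0.39). Klf10, a target of TGF-beta, had a log2 change of -0.33, Klf12 of 0.12 and Klf5 of 0.0026.

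The spread between arrays was wide for some of these genes. The SE of the log2 change was above 0.4 in 10 of the 53 (18.9%), against 10.2% of all genes, and this limit was chosen after the values were seen. The 10 were Jun, Klf7, Klf13, Etv5, Dusp6, Mafk, Klf6, Spred1, Egr1 and Dusp16. Among them, Klf6, Klf7 and Klf13, set side by side after their values were seen, ranked the arrays alike. Klf7 had 1.08, 1.78 and 0.373 in static cells and 0.674, 0.469 and 1.47 in simulated microgravity. Klf13 had 1.26, 2.36 and 0.538 in static cells and 0.806, 0.652 and 1.53 in simulated microgravity. In all 3 genes static 2 was the highest array and static 3 the lowest, and within the microgravity group microgravity 3 was highest and microgravity 2 lowest. Klf6 ran from 1.45 to 4.87 within the static group alone. Their log2 changes were -0.12 (Klf6), -0.21 (Klf7) and -0.33 (Klf13), with SEs of 0.45, 0.66 and 0.58.

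**Figure D3:**
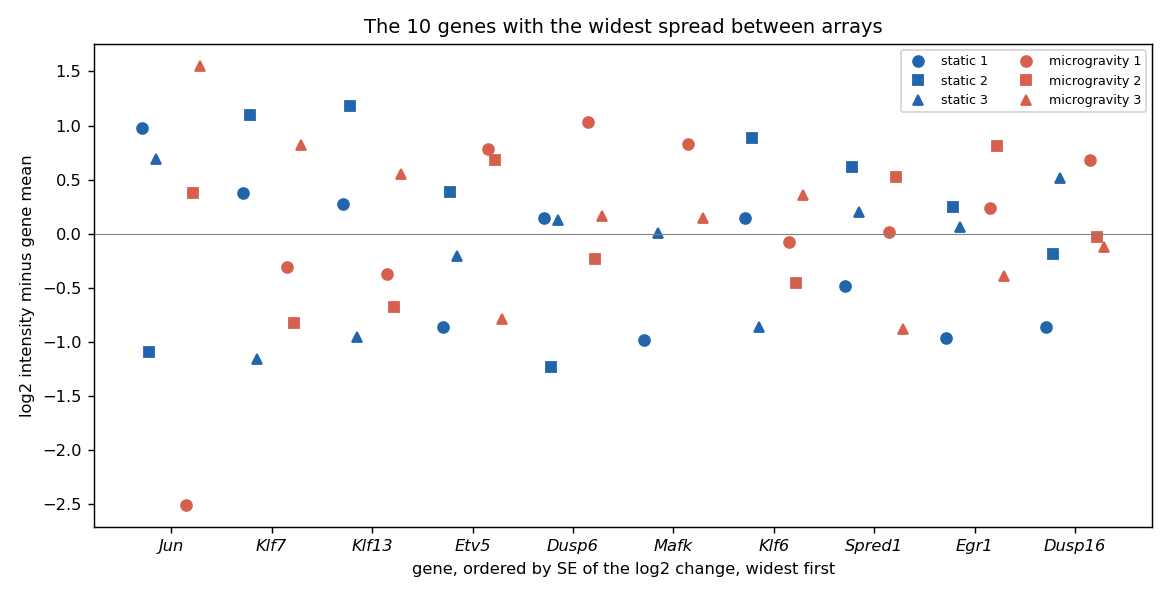
Log2 intensity of each array minus the gene's mean for the 10 genes with the largest SE of the log2 change; blue is static, red simulated microgravity, and symbols are replicates 1 to 3. Jun spans 16.6-fold, with both extremes in the microgravity group, and Klf7, Klf13 and Klf6 share the order of arrays.

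Some arrays of the 2 groups deviated together over all probes, and others in opposite directions. Deviations from the group mean correlated across probes, which are not independent, at 0.66 between static 1 and microgravity 3, at 0.45 between static 2 and microgravity 2 and at 0.38 between static 3 and microgravity 1. They correlated at -0.45 between static 1 and microgravity 2 and at -0.43 between static 2 and microgravity 3. Deviations from a group mean cancel within the group, so positive correlations bring negative ones with them, and the negative ones are no separate observation. Of the 51 genes tested with values on every array, 11 (21.6%) were highest on static 1 and on microgravity 3 within their groups, among them Egr2, Klf2, Fosb, Jun and Jund. The share over all genes was 23.7%. A further 14 (27.5%) were highest on static 2 and microgravity 2, among them Fos, Egr1 and Dusp1, against 31.4% of all genes. Another 7 (13.7%), among them Klf6, Klf7 and Klf13, were highest on static 2 and microgravity 3, against 10.2% of all genes. Of the wide-spread genes, Dusp6 was highest on static 1 and microgravity 1, and Etv5 on static 2 and microgravity 1. Static 2 and microgravity 2 also had the fewest values at the floor (9.16% and 6.44%, against 17.1% to 19.8% on the other arrays). What these arrays share was not tested.

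Other genes of the pathway were taken from 5 lists, which were drawn up with earlier results of these data known. The lists held 130 genes that are not among the 54, of which 128 were tested, and 1 passed the threshold (0.781%, against 0.28% of all genes). At an unadjusted p under 0.05 there were 28 (21.9%), 18 higher and 10 lower, against 11.5% of all genes. Some genes stand in more than 1 list.

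The count for the ERK cascade itself lay near the background. Of 25 tested components, 1 was higher and 2 were lower at an unadjusted p under 0.05 (12.0%, against 11.5% of all genes). The median log2 change was 0.03, with 0 past the threshold. The platelet-derived growth factor receptors Pdgfra and Pdgfrb had ratios of 0.382 (limma adjusted p = 0.0521) and 0.615 (limma adjusted p = 0.322). Pdgfra had 62.9, 43.6 and 50.2 in static cells and 18.4, 18.7 and 22.3 in simulated microgravity, so every microgravity value was below every static one. It passed under 10 of the 20 alternatives. Both receptors also stand among the mesenchyme markers, whose summed level was lower in simulated microgravity, and the part of that in their values was not tested. The MEK gene Map2k1 had a ratio of 1.28 (limma adjusted p = 0.414). Of 23 components of the JNK, p38 and related cascades 1 was higher and 1 lower at that level (8.70%, against 11.5% of all genes). The higher one was Mapkapk5 (ratio 1.50) and the lower one the p38 activator Map2k6 (ratio 0.532, on 4 arrays). The third by p there was the JNK scaffold Mapk8ip1, with a ratio of 0.669.

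Of 14 upstream transcription factors, 1 was at that level (7.14%, against 11.5% of all genes). It was Atf1, a CREB relative, with a ratio of 1.61 (limma adjusted p = 0.374). Srf, the serum response factor that binds the CArG box, had 3.80, 8.19 and 6.38 in static cells and 8.28, 13.8 and 6.95 in simulated microgravity. The groups overlapped (log2 change 0.66, 95% interval -0.18 to 1.51). Its partner Elk3 had a ratio of 0.631 (95% interval of the log2 change -1.39 to 0.07). Of 19 other feedback regulators, 2 were at that level (10.5%, against 11.5% of all genes). Errfi1, an inhibitor of the EGF receptor, was higher (ratio 1.32) and Socs2, an inhibitor of cytokine signalling, lower (ratio 0.707). The phosphatase Ptpn1 had a ratio of 0.656. The limma adjusted p-values of these 3 were 0.235 to 0.587.

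The remaining list holds other immediate-early and serum response genes. Of its 49 genes, 21 (42.9%) were at an unadjusted p under 0.05, 15 higher and 6 lower, where the shares of all genes were 5.79% and 5.7%. The list was drawn up with earlier results of these data known, so no enrichment can be read from this share. Its median log2 change was 0.10, the same as that of the 53 genes, with 26 higher and 23 lower. Sgk1, which encodes a serum- and glucocorticoid-inducible kinase, was higher by 2.17-fold (limma adjusted p = 0.0394) and was the 1 gene past the threshold. It had 3.55, 3.17 and 3.58 in static cells and 7.55, 7.35 and 7.44 in simulated microgravity. It passed under 11 of the 20 alternatives. With eBayes without the intensity trend it did not pass, and 19 of all those tested did. It also did not pass with any 1 array left out, with the replicate number as a block or without static 2 and microgravity 2. Under those settings 0 of all probes tested passed, so this was not particular to Sgk1. Fosl1, the Fos relative that the naming rule left out, had 1.09, 1.12 and 1.13 in static cells and 2.38, 2.38 and 3.02 in simulated microgravity (log2 change 1.21, limma adjusted p = 0.0669), and passed under 6 of the 20 alternatives. Its groups were far apart, unlike those of Fos, Fosb and Fosl2, although the difference between these genes was not tested. Ereg, a ligand of the EGF receptor, had 5.85, 6.86 and 7.54 in static cells and 12.9, 14.3 and 12.2 in simulated microgravity (ratio 1.95, limma adjusted p = 0.0753).

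**Figure D4:**
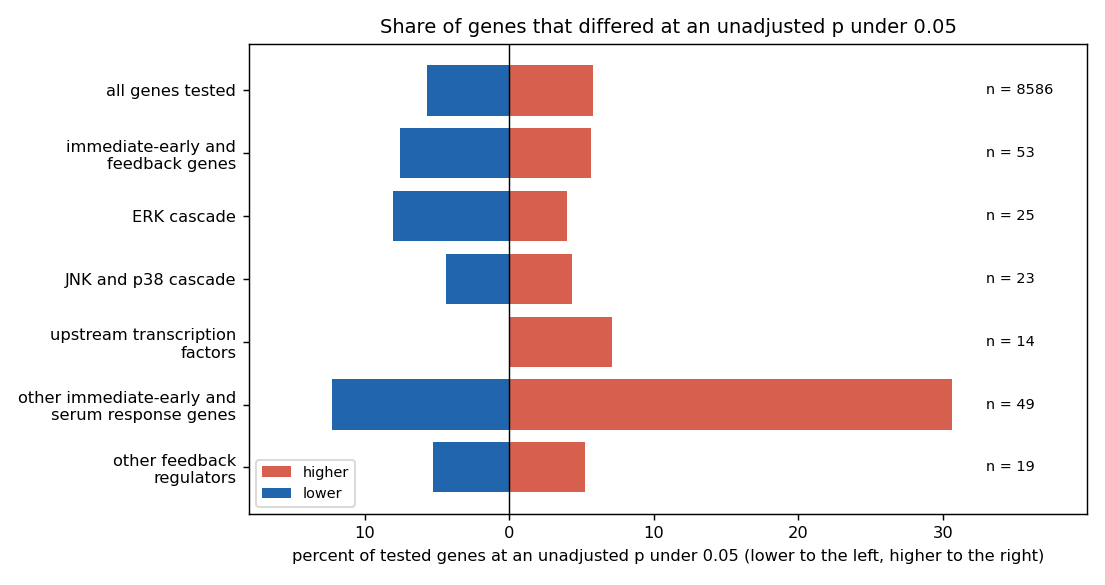
Percent of tested genes at an unadjusted limma p under 0.05, higher (red, right) and lower (blue, left) in simulated microgravity, for all genes, the 53 tested genes and the 5 lists of other pathway genes. The 53 genes have 7 at this level (13.2%) against 11.5% of all genes, and the other immediate-early and serum response genes have 21 of 49. The genes and lists were chosen with earlier results of these data known, so the bars do not measure enrichment.

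The arrays carried 10337 to 10432 values each. Of 15 listed osteoblast and mesenchyme markers 11 were measured, and Runx2, Sp7, Bglap and Spp1 were not among them. The summed level of the 11 was 569 to 646 in static cells and 335 to 385 in simulated microgravity. All 11 had lower values in simulated microgravity, and Pth1r and Alpl passed the threshold. The largest parts of the sum were Sparc, Vim, Dcn and Postn. Endothelial and epithelial markers (9 of 9) and skeletal muscle markers (6 of 6) lay below the array median on every array, with summed levels of 0.872 to 1.12 and 0.847 to 0.972 in static cells and 0.856 to 1.34 and 0.796 to 1.04 in simulated microgravity. Those of macrophages, osteoclasts and blood (9 measured) summed to 12.1 to 17.9 and 9.66 to 17.6, most of it Cd14, with the leukocyte gene Ptprc at or near the floor. Adipocyte markers (5 measured) summed to 42.7 to 50.5 and 35.8 to 41.4, and chondrocyte markers (4 measured) to 1.44 to 2.77 and 1.31 to 1.95. Most of the adipocyte sum was Fabp4 and Lpl. Fabp4 had means of 26.1 in static cells and 26.5 in simulated microgravity, and Lpl of 16.9 and 9.89. In bulk samples fewer cells of a type and less RNA per cell cannot be told apart.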

How the data were processed

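Expression was measured on 6 arrays, 3 static and 3 microgravity. The deposited values are intensities on a linear scale. The sources used here do not say how the authors made them, and nearly equal array medians (0.908 to 0.927) show a table already scaled between arrays. Values were divided by the median of their array, those under 0.1 were set to 0.1, and log2 was taken, which understates changes of dim probes. Probes at the floor on all arrays were left out, as were those with under 2 values in either group, leaving 10146 of 10500. Groups were compared with limma 3.58.1 in R 4.3.3 (lmFit, eBayes with intensity trend, 2-sided, Benjamini-Hochberg adjustment over all probes, threshold 0.05). The fit was tested on simulated data in which 200 of 10146 probes, all above the array median, were changed. It recovered 92.3% of 4-fold and 38.2% of 2-fold changes, so most 2-fold changes were missed there. Of its calls 4.98% were false. The number of arrays limits the precision.

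Symbols came from GEO's platform annotation, where 8983 probes had 1 symbol, 1 had several and 1516 had none. Gene identifiers of 8975 probes were found in the NCBI gene table of GRCm38.p6, with 0 symbols changed. Promoter sequences are RefSeq's.

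The genes and lists were chosen with earlier results of these data known, so no list was tested as a set. Array values are given for the 8 genes in each direction with the smallest p and for a fixed set of standard early genes, and, of each other list, the 3 genes with the smallest p are named. Genes given beyond this were picked after their values were seen.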

Additional observations from a re-analysis of the deposited data

How the results depend on the processing

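The count of immediate-early and feedback genes past the threshold was 0 in each of the 20 alternatives. With the replicate number as a block, without static 2 and microgravity 2, and with any 1 array left out, 0 of all probes passed. A count of 0 was fixed there. In the other alternatives 19 to 115 of all those tested passed. The median log2 change of the immediate-early and feedback genes was 0.10 with all arrays and ran from 0.01 to 0.17 with 1 array left out. It was 0.09 under quantile and 0.08 under cyclic loess normalization. At an unadjusted p under 0.05 there were 7 of the 53 genes, where 11.5% of all genes were. With the dimmest 50% of probes left out there were 4 of 24, against 15.8% of all genes. With the replicate number as a block there were 4 of 53 (9.80% of all genes), and without static 2 and microgravity 2, 4 of 51 (9.85%). With 1 array left out there were 2 to 9 of 51 to 53, against 7.97% to 10.4% of all genes. Spry1 and Myc were at that level in all 20, and Egr2 and Klf2 in 15 of 20 each. Dusp22 was in 17 of the 19 that tested it, and Phlda1 and Klf3 in 12 of 19 each. Deviations of same-numbered arrays correlated at -0.21, 0.45 and -0.18, and those of differently numbered arrays at up to 0.66. Because deviations cancel within each group, these values cannot say whether the replicate numbers pair the samples. The fit used above treated the samples as unpaired. Other pathway genes past the threshold (1) became 2 with quantile normalization, the floor at 0.2 or 0.5 of the median, or eBayes robust, and 3 with cyclic loess normalization, the floor at 0.05, no floor, or the dimmest 25% of probes left out. They were 4 with array weights, 5 with the dimmest 50% left out and 0 with eBayes without intensity trend. They were also 0 under the settings above in which 0 of all probes passed. Signs turned for genes with changes near 0 or a wide spread. With 1 array left out the log2 changes ran from -0.039 to 0.27 for Fos, -0.27 to 0.23 for Fosb, -1.26 to 0.77 for Jun, -0.0024 to 0.29 for Dusp1 and -0.023 to 0.14 for Zfp36. Zfp36 also had -0.0091 with array weights and -0.021 without static 2 and microgravity 2. The cause was not tested.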
